A study of Sus scrofa with 6 samples.

Results

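The genes described here are those of the TNF superfamily of ligands and receptors, the TRAF adaptor proteins and the NF-kappaB pathway, as expressed in pig lung after liver resection. They were chosen by symbol. A main-category probe set entered if its gene symbol began with TNFSF, TNFRSF, TNFAIP, TRAF, NFKB, BIRC or IKBK, or was one of a short list of single genes such as TNF, LTA, LTB, FAS, CD27, CD40, RELA, REL, FADD, RIPK1 and CHUK. The rule found 39 of the 11764 genes tested. It names symbols only, but it was set with earlier results of these data known. Where a gene had several probe sets, the one with the highest mean signal was used. No probe set used here carried the symbols LTBR, FASLG, CD40LG, RELB or TRADD or a symbol beginning with BIRC, so these genes were not analysed under the rule. A further 13 genes of the same families are listed in the file under another symbol and are described at the end. The gene IKBKAP was caught by its prefix only, since it encodes a subunit of the elongator complex and not a part of the NF-kappaB pathway, and its log2 fold change, MSC-treated minus control, was 0.07 (SE 0.19).

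Lung tissue of adult male German landrace pigs was taken 24 h after extended partial hepatectomy (ePHx) and hybridised to Affymetrix porcine gene arrays. The 3 control arrays came from pigs given Ringer solution as the vehicle, and the 3 MSC-treated arrays from pigs given mesenchymal stromal cells of porcine bone marrow (pBM-MSC) that had been differentiated towards hepatocytes and were transfused through a central vein. Every animal had undergone ePHx, and no array of an animal without resection was analysed here. The labels do not state which animal each array came from, so the p-values measure the spread between these arrays.

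Ligands of the TNF superfamily bind receptors on the cell surface, which recruit TRAF proteins or death-domain adaptors such as FADD. TRAF proteins and RIPK1 then activate the IkappaB kinase complex, which marks inhibitors such as NFKBIA for degradation and so releases the NF-kappaB subunits to the nucleus. The pathway is known for driving cytokine, chemokine and adhesion molecule genes in the inflamed lung, and several of its own brakes, among them NFKBIA and TNFAIP3, are among the genes it switches on.

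The lung label was checked against surfactant genes. SFTPC, the surfactant protein of alveolar type II cells, had log2 signals between 12.27 and 12.54 on the 6 arrays, while the mean log2 signal of the antigenomic background probe sets lay between 3.88 and 4.24. In the deposited probe table the array names of control 1, control 3 and MSC-treated 2 hold the letters b-T, and those of the other 3 arrays do not. The labels do not give the meaning of this mark. It is written here as the b-T mark, and each comparison was also made with it as a covariate. A gene is called past the thresholds where its p before adjustment was under 0.05 and its log2 fold change was 0.5 or more in either direction. In a fit with both treatment and mark, 1006 of all genes were past these thresholds as higher and 616 as lower in arrays with the mark. Signals of different genes come from different probes and are not compared with each other as amounts of RNA. In bulk lung tissue, fewer cells of a type and less RNA per cell cannot be told apart.

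The first question was whether these genes differed in the lung between MSC-treated and control animals. None of the 39 was past the thresholds in either direction, where 1.86% of all genes tested were past them, 0.655% as higher and 1.21% as lower. At an unadjusted p under 0.05 alone there was 1 gene, REL, against 2.75% of all genes, and by limma with Benjamini-Hochberg adjustment no gene of the 39 and no gene of the 11764 reached an adjusted p under 0.05. The log2 fold changes of MSC-treated against control ran from -0.80 (TNFAIP6) to 0.44 (TNFSF10), 23 of them positive and 16 negative. Their median was 0.05, beside 0.00 over all genes. The values of all 39 genes on each array are shown in the plot of signals by role.

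**Figure D1:**
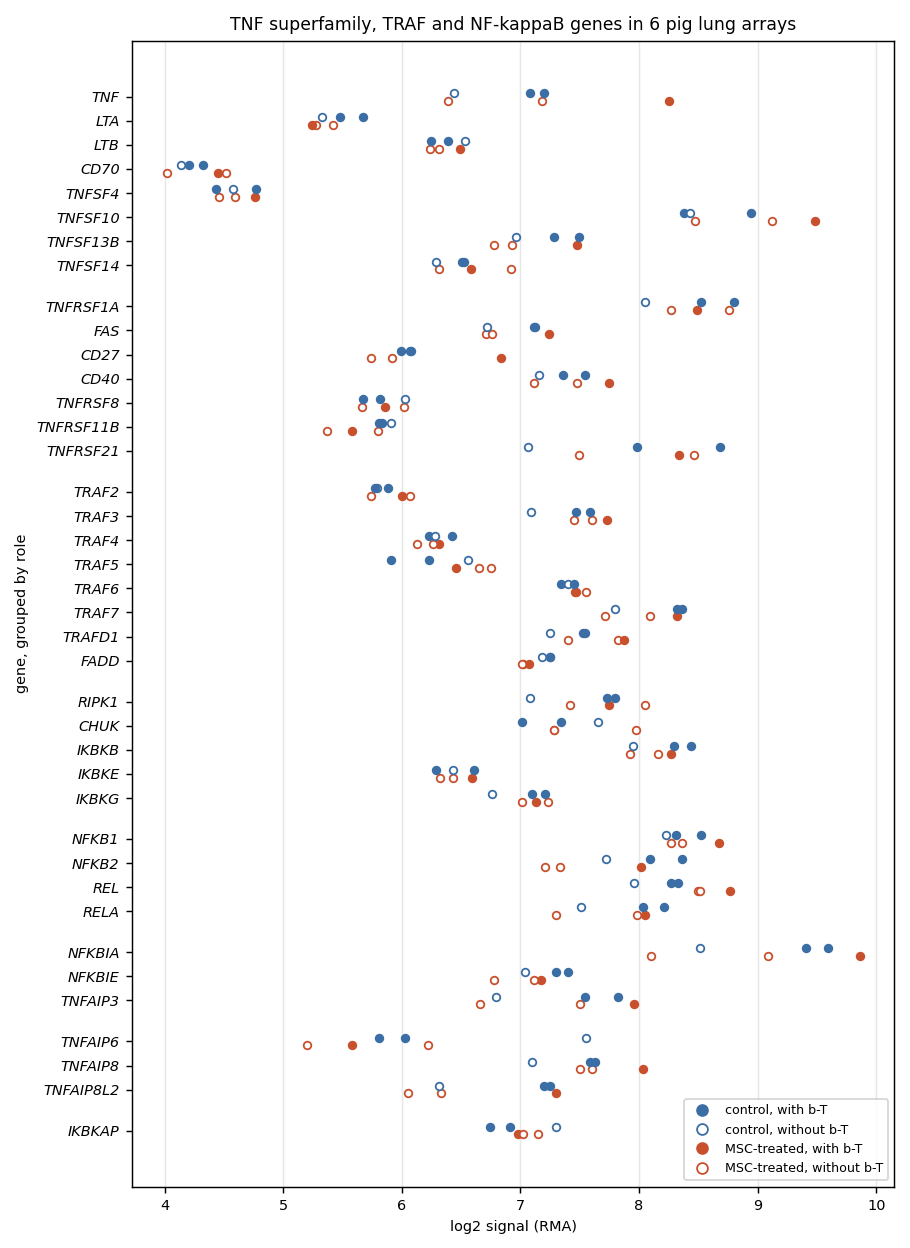
Log2 RMA signals (x axis) of the 39 genes (y axis, grouped by role from ligands at the top to IKBKAP at the bottom) on 3 control arrays in blue and 3 MSC-treated arrays in red, with filled points for the arrays that carry the b-T mark and open points for those that do not. For 35 genes the control and MSC-treated points overlap, and for NFKBIA, TNFAIP3 and TNFAIP8L2 every filled point lies to the right of every open one.

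The precision differed from gene to gene. The median standard error of a log2 fold change was 0.20. The 95% interval lay within 0.5 either way for 9 of the 39 genes (23.1%, against 23.5% of all genes), namely LTB, TNFSF4, TNFRSF8, TRAF2, TRAF4, TRAF6, IKBKE, NFKB1 and IKBKAP. It lay within 1 either way for 32. The 7 with wider intervals were TNF, TNFSF10, TNFRSF21, NFKB2, NFKBIA, TNFAIP6 and TNFAIP8L2, for which a change of 1 log2 unit in at least 1 direction lay within the interval. The control and MSC-treated arrays did not overlap for 4 genes (10.3%, against 7.44% of all genes). REL and TRAF6 were higher on all 3 MSC-treated arrays, as were 3.6% of all genes, and FADD and TNFRSF11B were lower on all 3, as were 3.83%. The share is near that of all genes.

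**Figure D2:**
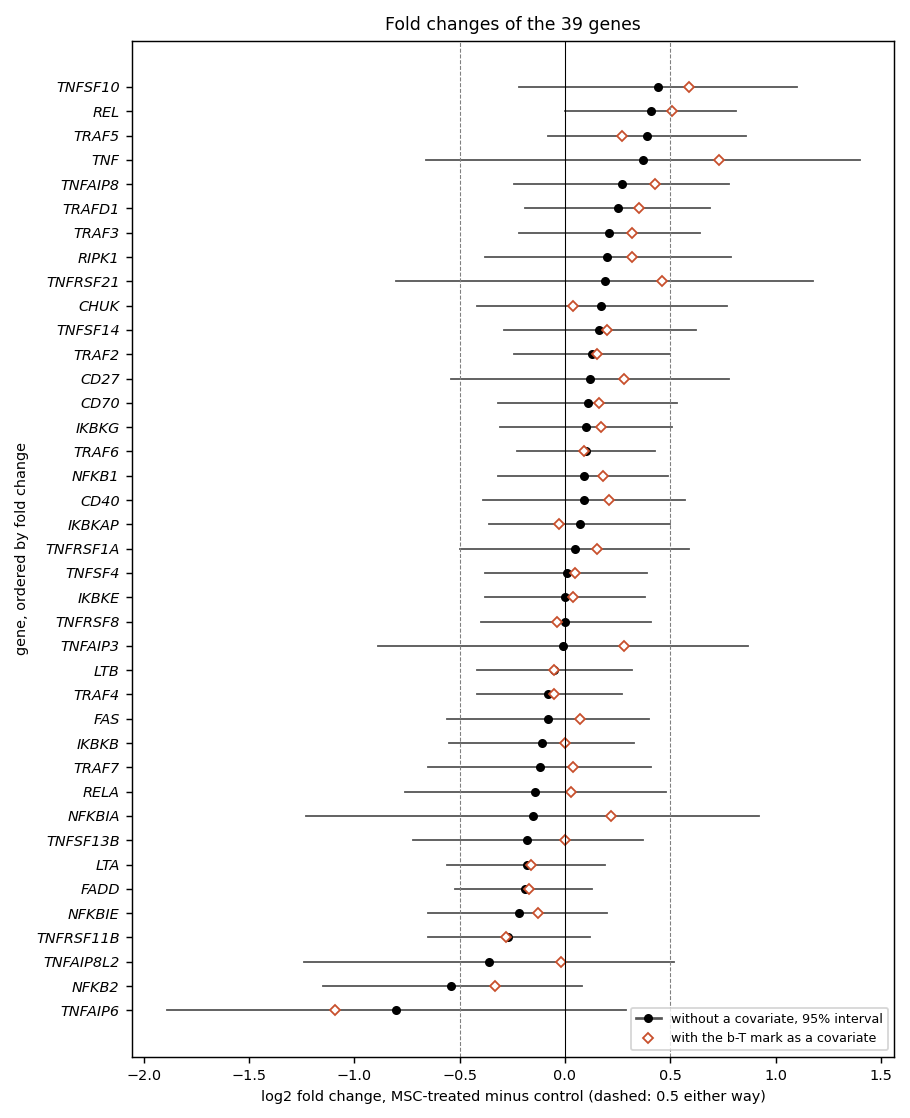
Log2 fold change of MSC-treated minus control (x axis) of the 39 genes (y axis, in order of fold change), with black points and 95% intervals for the limma fit without a covariate and open red diamonds for the fit with the b-T mark as a covariate. The interval of REL begins at 0.00 and the intervals of all other genes include 0, and TNF, REL and TNFAIP6 are the genes whose diamonds lie past 0.5 with an unadjusted p under 0.05.

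Of the 8 ligands, none was past the thresholds and none had separate groups. TNFSF10, the death ligand TRAIL, had the largest fold change of the class. Its log2 signals were 8.38, 8.43 and 8.94 on control arrays 1 to 3 and 9.12, 9.48 and 8.47 on MSC-treated arrays 1 to 3. MSC-treated 1 and 2 lay above all controls, and MSC-treated 3 lay among them. This gave a log2 fold change of 0.44 (SE 0.28, 95% interval -0.22 to 1.10, limma p = 0.166, exact permutation p = 0.2). Without MSC-treated 3 it was 0.71 and past the thresholds, and without MSC-treated 2 it was 0.21.

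TNF, the founding cytokine of the family, lies in the pig between the genes of the lymphotoxins LTA and LTB. On the Sscrofa10.2 build the 3 transcripts are at chr7:27654922-27656624 (LTA), chr7:27658519-27661277 (TNF) and chr7:27663733-27665643 (LTB). The log2 signals of TNF were 7.08, 6.44 and 7.20 on the control arrays and 6.39, 8.25 and 7.18 on the MSC-treated arrays. The lowest and the highest of the 6 values were both from MSC-treated animals, so that the groups overlapped over the whole control range. The groups differed by a log2 fold change of 0.37 (SE 0.45, 95% interval -0.66 to 1.4, limma p = 0.432, exact permutation p = 0.7), and without MSC-treated 2 by -0.12. With the b-T mark as a covariate it was 0.73 (SE 0.27, unadjusted p = 0.0284, adjusted p = 0.988), past the thresholds. Among the marked arrays alone, which are 2 controls and 1 MSC-treated array, the difference was 1.11, and among the unmarked ones, 1 control and 2 MSC-treated arrays, it was 0.35.

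The genes on either side of TNF had narrower ranges. LTA gave 5.48, 5.33 and 5.67 on control arrays and 5.28, 5.24 and 5.42 on MSC-treated arrays, a log2 fold change of -0.18 (SE 0.16). LTB gave 6.39, 6.53 and 6.25 against 6.24, 6.49 and 6.31, with a log2 fold change of -0.05 and a 95% interval from -0.42 to 0.32. The high TNF signal of MSC-treated 2 was thus not seen at LTA or LTB.

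The other ligands serve lymphocytes. TNFSF13B (BAFF), a survival factor of B cells, had log2 signals of 7.49, 6.96 and 7.28 on control arrays and 6.93, 7.48 and 6.78 on MSC-treated arrays, with a log2 fold change of -0.18 (SE 0.24). Its 3 highest values were those of the arrays with the b-T mark. TNFSF14 (LIGHT), a ligand of the lymphotoxin receptor, had a log2 fold change of 0.16 (SE 0.20), CD70, the ligand of CD27, one of 0.11 (SE 0.18) and TNFSF4 (the OX40 ligand) one of 0.01 (SE 0.17). CD70 had log2 signals between 4.02 and 4.52 and TNFSF4 between 4.43 and 4.77, close to the background probe sets, so a change in either would be compressed. The CD70 probe set is of the cross-hybridization type that the file gives as 3, which is not that of unique probe sets.

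Of the 7 receptors none was past the thresholds. TNFRSF1A, the main receptor for TNF on tissue cells, gave log2 signals of 8.80, 8.05 and 8.52 on control arrays and 8.27, 8.49 and 8.76 on MSC-treated arrays, with a log2 fold change of 0.05 (SE 0.23). TNFRSF21 (death receptor 6) had a wider range, with 8.68, 7.06 and 7.98 against 7.49, 8.34 and 8.46. Its log2 fold change was 0.19 (SE 0.43, 95% interval -0.80 to 1.18), and leaving out each array in turn moved it between -0.23 and 0.58. For these receptors the spread within the control group exceeded the difference between groups.

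TNFRSF11B, which encodes osteoprotegerin, a soluble decoy receptor for the bone-resorption ligand RANKL and for TRAIL, was lower on all 3 MSC-treated arrays. Its log2 signals were 5.81, 5.91 and 5.83 on control arrays and 5.80, 5.58 and 5.37 on MSC-treated arrays, and MSC-treated 1 was 0.01 below the lowest control on the printed scale. The log2 fold change was -0.27 (SE 0.17, limma p = 0.149, exact permutation p = 0.1, two-sided, the smallest that 3 arrays against 3 allow). A second probe set of the gene differed the other way, by 0.53, from 4.47 ± 0.63 (SD, n = 3) on control arrays to 5.0 ± 0.18 (SD, n = 3) on those of MSC-treated animals. The probe set used is also of cross-hybridization type 3. The direction for TNFRSF11B therefore differs between its probe sets.

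The remaining receptors are those of lymphocytes and antigen-presenting cells. CD27, a costimulatory receptor of T cells, gave log2 signals of 5.99, 6.08 and 6.07 on control arrays and 5.74, 6.84 and 5.92 on MSC-treated arrays. MSC-treated 2 stood above all others and MSC-treated 1 and 3 below all controls, and the log2 fold change was 0.12 (SE 0.28). FAS, a death receptor, had a log2 fold change of -0.08 (SE 0.21), CD40 one of 0.09 (SE 0.21) and TNFRSF8 (CD30) one of 0.00 (SE 0.17). A second probe set with the symbol TNFRSF8, on another chromosome, differed by -0.76 (exact permutation p = 0.2).

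Markers of T cells and of NK and cytotoxic cells had the same high array as TNF, TNFSF10 and CD27. Those of B and plasma cells did not. The mean log2 signal of 5 such markers was highest on MSC-treated 3, at 7.43, with 7.35 on MSC-treated 2. Over 9 measured T cell markers the mean log2 signal was 7.02 on MSC-treated 2 and between 5.96 and 6.42 on the other 5 arrays, and over 10 markers of NK and cytotoxic cells it was 6.96 on MSC-treated 2 and between 5.71 and 6.0 on the others. By treatment, the mean of the T cell list lay between 5.96 and 6.42 in control and between 6.10 and 7.02 in MSC-treated arrays, with 8 of 9 fold changes positive. For the NK and cytotoxic list the ranges were 5.71 to 6.0 and 5.81 to 6.96, with 8 of 10 positive and 2 genes past the thresholds as higher. The T cell mean was also higher on all 3 arrays with the b-T mark (6.42, 6.39 and 7.02) than on the other 3 (5.96, 6.10 and 6.12). Of these markers KLRD1 lay nearest the background probe sets, with log2 signals between 3.56 and 5.86. The mean log2 signal of all 39 genes was also highest on MSC-treated 2, at 7.27, with 6.88 to 7.15 on the other arrays. The part of T, NK and cytotoxic cells in the signals of TNF, TNFSF10 and CD27 was not tested.

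Of the 8 TRAF and adaptor proteins, TRAF6 and FADD had separate groups and TRAF5 the largest fold change. TRAF5, an adaptor of CD27, CD40 and other lymphocyte receptors, gave log2 signals of 5.91, 6.56 and 6.23 on control arrays and 6.75, 6.46 and 6.65 on MSC-treated arrays. MSC-treated 1 and 3 lay above all controls and MSC-treated 2 below control 2. TRAF5 had a log2 fold change of 0.39 (SE 0.20, 95% interval -0.08 to 0.86, limma p = 0.0932, exact permutation p = 0.2), and of 0.55 and past the thresholds without control 2. All 3 arrays with the b-T mark were lower for TRAF5 than the other 3, and with the mark as a covariate the log2 fold change was 0.27 (SE 0.17).

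TRAF6, the ubiquitin ligase that serves Toll-like receptors, the interleukin-1 receptor and CD40, had log2 signals of 7.34, 7.40 and 7.45 on control arrays and 7.47, 7.46 and 7.55 on MSC-treated arrays. Every MSC-treated value was above every control value, by a small margin. For TRAF6 this was a log2 fold change of 0.10 (SE 0.14, 95% interval -0.23 to 0.43, exact permutation p = 0.1), and leaving out single arrays moved it between 0.07 and 0.12. The interval excludes a change of 0.5.

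FADD, the adaptor that links death receptors to caspase-8, was lower on every MSC-treated array. Its log2 signals were 7.25, 7.18 and 7.25 on control arrays and 7.02, 7.07 and 7.01 on MSC-treated arrays, which is 7.23 ± 0.04 (SD, n = 3) against 7.03 ± 0.03 (SD, n = 3). FADD thus had a log2 fold change of -0.19 (SE 0.14, limma p = 0.209, exact permutation p = 0.1), and of -0.18 among marked and -0.16 among unmarked arrays. The standard error of limma borrows spread from all genes and is larger than that of these 6 values alone. Leaving out single arrays moved the value only between -0.22 and -0.18, a small difference that did not depend on any single array.

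The other adaptors had overlapping groups. TRAFD1, a regulator of innate immune signalling, had a log2 fold change of 0.25 (SE 0.19), TRAF3, which restrains non-canonical NF-kappaB signalling, one of 0.21 (SE 0.19) and TRAF2, which acts directly at the TNF receptors, one of 0.13 (SE 0.16). TRAF4 and TRAF7 had -0.08 (SE 0.15) and -0.12 (SE 0.23).

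Of the 5 kinase genes none had separate groups or was past the thresholds. RIPK1, the death-domain kinase of the TNF receptor complex, had the largest fold change of the class, with log2 signals of 7.80, 7.08 and 7.73 on control arrays and 7.42, 7.75 and 8.05 on MSC-treated arrays. Its log2 fold change was 0.20 (SE 0.25, 95% interval -0.38 to 0.79). CHUK (IKK-alpha), the catalytic subunit used by the non-canonical pathway, gave 7.34, 7.65 and 7.01 against 7.97, 7.28 and 7.28, with a log2 fold change of 0.17 (SE 0.26). MSC-treated 1 was the highest for CHUK and the other MSC-treated arrays lay between the controls. IKBKB (IKK-beta) had -0.11 (SE 0.19), IKBKG, the scaffold NEMO, 0.10 (SE 0.18) and IKBKE, an interferon-linked relative, 0.00 (SE 0.16). The IkappaB kinase genes thus all had log2 fold changes between -0.11 and 0.17.

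REL was the gene of the 39 with the smallest p. It encodes c-Rel, the NF-kappaB subunit used most by lymphoid and myeloid cells. The log2 signals were 8.33, 7.96 and 8.27 on control arrays and 8.50, 8.77 and 8.51 on MSC-treated arrays. All 3 MSC-treated arrays were higher than all 3 controls. The mean log2 signal was 8.59 ± 0.15 (SD, n = 3) with MSC and 8.19 ± 0.20 (SD, n = 3) without, a log2 fold change of 0.41 (SE 0.17), an unadjusted limma p of 0.0481 and an exact permutation p of 0.1. That is under the fold threshold, and the adjusted p over all genes was 1. With the b-T mark as a covariate REL was past the thresholds at 0.51 (SE 0.15, unadjusted p = 0.0113, adjusted p = 0.988). It differed by 0.47 among marked and by 0.54 among unmarked arrays, and leaving out single arrays gave 0.29 to 0.48.

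Of the remaining subunits NFKB1 had a positive fold change and NFKB2 and RELA negative ones. NFKB2, whose precursor is processed for the non-canonical pathway, had log2 signals of 8.36, 7.72 and 8.09 on control arrays and 7.33, 8.02 and 7.21 on MSC-treated arrays. MSC-treated 1 and 3 were below all controls and MSC-treated 2 was among them. NFKB2 had a log2 fold change of -0.54 (SE 0.26, 95% interval -1.15 to 0.08, limma p = 0.0789, exact permutation p = 0.2), and of -0.33 (SE 0.17) with the b-T mark as a covariate. It passed the thresholds without MSC-treated 2 (-0.78), without control 2 (-0.71) and with array weights (-0.57). A second NFKB2 probe set, however, differed by 0.07 the other way, between 7.31 ± 0.11 (SD, n = 3) for control and 7.38 ± 0.19 (SD, n = 3) for MSC-treated animals (exact permutation p = 0.8). The probe sets of NFKB2 thus gave differences of opposite sign.

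RELA, the p65 subunit of the classical pathway, gave 8.21, 7.51 and 8.03 on control arrays and 7.30, 8.05 and 7.98 on MSC-treated arrays, with a log2 fold change of -0.14 (SE 0.27, limma p = 0.618, exact permutation p = 0.6). NFKB1, its usual partner, had a log2 fold change of 0.09 and a 95% interval from -0.32 to 0.49, which excludes a change of 0.5. Over the 4 subunits the median log2 fold change was -0.03.

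None of the 3 inhibitors of the pathway had separate groups by treatment. NFKBIA, the IkappaB-alpha protein that holds NF-kappaB in the cytoplasm, gave 9.59, 8.51 and 9.41 on control arrays and 8.10, 9.86 and 9.09 on MSC-treated arrays. TNFAIP3, a ubiquitin-editing enzyme that shuts down TNF receptor signalling, gave 7.82, 6.79 and 7.54 against 6.66, 7.96 and 7.50. For both genes MSC-treated 2 was the highest and MSC-treated 1 the lowest of the 6 arrays. The log2 fold changes were -0.15 (SE 0.46) for NFKBIA and -0.01 (SE 0.38) for TNFAIP3, and both turned positive, to 0.22 and 0.28, with the b-T mark as a covariate. NFKBIE, a further IkappaB protein, had the largest fold change of the class, -0.22 (SE 0.18, limma p = 0.255, exact permutation p = 0.3), from 7.40, 7.04 and 7.30 on control arrays and 6.78, 7.17 and 7.11 on MSC-treated arrays. MSC-treated 1 alone was below all controls for NFKBIE.

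The genes named for their induction by TNF do unlike things. TNFAIP6 encodes TSG-6, a secreted hyaluronan-binding protein that dampens inflammation and that mesenchymal stromal cells are known to release. Its log2 signals were 6.03, 7.55 and 5.81 on control arrays and 6.22, 5.58 and 5.20 on MSC-treated arrays. Control 2 stood far above the other 5 arrays, and MSC-treated 1 was higher than control 1 and control 3. TNFAIP6 had a log2 fold change of -0.80 (SE 0.47, 95% interval -1.89 to 0.29, limma p = 0.128, exact permutation p = 0.3), and of -0.26 without control 2. With the b-T mark as a covariate it was -1.09 (SE 0.39, unadjusted p = 0.0238, adjusted p = 0.988), past the thresholds, with differences of -0.35 among the marked arrays and -1.84 among the unmarked ones, where control 2 is the only control.

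TNFAIP8, a regulator of apoptosis, had log2 signals of 7.59, 7.10 and 7.63 on control arrays and 7.60, 8.03 and 7.50 on MSC-treated arrays. The groups overlapped, with a log2 fold change of 0.27 (SE 0.22). With the b-T mark as a covariate it was 0.43 (SE 0.15, unadjusted p = 0.0234), under the fold threshold, with 0.42 among marked and 0.45 among unmarked arrays. Its relative TNFAIP8L2 (TIPE2), a negative regulator of immune receptor signalling, gave 7.25, 6.31 and 7.20 against 6.33, 7.30 and 6.05. MSC-treated 2 and 2 of the controls shared the high level and the other 3 arrays the low one. By treatment the log2 fold change was -0.36 (SE 0.38), and -0.02 (SE 0.17) with the mark as a covariate.

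With the mark as a covariate the fit thus had 2 of the 39 genes past the thresholds as higher (TNF and REL) and 1 as lower (TNFAIP6), where 2.88% of all genes were past them, 1.66% as higher and 1.22% as lower. No gene of the 11764 had an adjusted p under 0.05 in that fit either. The median log2 fold change of the 39 genes was 0.09 with the covariate. It was 0.11 among marked and 0.09 among unmarked arrays.

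More of these genes differed between arrays with and without the b-T mark than between treatments. In the same fit, 8 of the 39 genes (20.5%) were higher in the marked arrays at the thresholds and none was lower, against 8.55% and 5.24% of all genes (13.8% in either direction). The 8 were the ligands TNF and TNFSF13B, the receptor TNFRSF21, the subunits NFKB2 and RELA, the inhibitors NFKBIA and TNFAIP3, and TNFAIP8L2. The marked and unmarked arrays did not overlap for 12 genes. TNFSF13B, FAS, TRAF7, IKBKB, NFKB2, RELA, NFKBIA, NFKBIE, TNFAIP3 and TNFAIP8L2 were higher on all 3 marked arrays (25.6%, against 12.2% of all genes), and TRAF5 and IKBKAP were lower on all 3 (5.13%, against 10.8%). The second NFKB2 probe set did not separate by the mark. Its log2 signals were 7.44, 7.24 and 7.16 on marked and 7.25, 7.49 and 7.50 on unmarked arrays.

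TNFAIP8L2 was the gene of the 39 with an adjusted p under 0.05 for the mark, against 0.969% of all genes. Its mean log2 signal was 7.25 on marked and 6.23 on unmarked arrays, and the fitted difference was 1.01 (SE 0.17, limma adjusted p = 0.0452). For NFKBIA the means were 9.62 and 8.56 and the fitted difference was 1.13 (SE 0.28, adjusted p = 0.104). For TNFAIP3 they were 7.77 and 6.98, with a fitted difference of 0.88 (SE 0.25, adjusted p = 0.139). For each of these brakes of inflammatory signalling all 3 marked arrays were above all 3 unmarked ones, as the plot of signals by mark shows. TNF had a fitted difference of 1.08 (SE 0.27, adjusted p = 0.111), with 1 unmarked array, MSC-treated 3, between the marked controls.

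**Figure D3:**
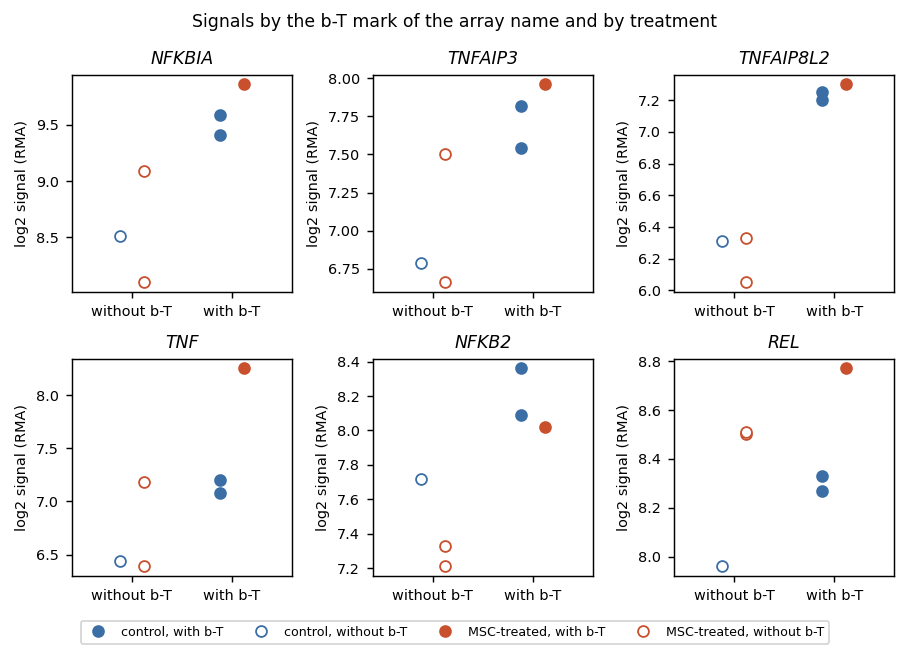
Log2 RMA signals (y axis, a separate scale for each gene) of NFKBIA, TNFAIP3, TNFAIP8L2, TNF, NFKB2 and REL on arrays without and with the b-T mark (x axis), with control arrays in blue and MSC-treated arrays in red. For NFKBIA, TNFAIP3, TNFAIP8L2 and the NFKB2 probe set used, all marked arrays lie above all unmarked ones, whereas REL separates by treatment within each mark. A second NFKB2 probe set, not shown, does not separate by the mark.

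Markers of several cell types differed by the mark as well. The mean log2 signal of 7 macrophage markers, which include MARCO, C1QB and VSIG4, was 10.45, 10.32 and 10.27 on the marked arrays and 9.29, 9.65 and 9.66 on the unmarked ones, and 5 of the 7 markers had no overlap between marked and unmarked arrays. By treatment the same mean ran from 9.29 to 10.45 in control and from 9.65 to 10.27 in MSC-treated arrays, with 2 of 7 fold changes positive. At the thresholds 5 of the 7 macrophage, 6 of the 9 T cell, 5 of the 10 NK and cytotoxic, 2 of the 5 endothelial and 2 of the 7 neutrophil markers were higher on marked arrays, and none of these was lower. The macrophage marker MRC1 had a fitted difference of -0.34 (SE 0.19). The neutrophil list was split, with CXCR2 (1.64) and PGLYRP1 (1.27) the higher ones and S100A12 at 0.01. Its other markers S100A8 (-0.96), S100A9 (-0.80), TREM1 (-0.57) and MMP25 (-0.14) had negative fitted differences, and the median of the list was -0.14. Of 7 fibroblast and smooth muscle markers none was higher and 2 were lower, COL3A1 (-0.79) and TAGLN (-0.64). In the same list DCN (0.44) and PDGFRB (0.43), under the fold threshold, had all marked arrays above all unmarked ones, and the median was -0.11. Of 6 dendritic cell markers 1 was higher. None of the B and plasma cell, platelet, erythroid or alveolar epithelial markers was past the thresholds. The mean of the 5 endothelial markers was 10.01, 9.88 and 9.93 on marked and 9.30, 9.35 and 9.57 on unmarked arrays. The part of these cells in the levels of the 8 genes was not tested. The mark was spread unevenly over the groups, with 2 of 3 control arrays and 1 of 3 MSC-treated arrays.

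The genes that the pathway switches on were described from a list of known NF-kappaB targets, of which 31 were measured and none is among the 39. None was past the thresholds as higher and 4 were past them as lower, against 0.655% and 1.21% of all genes, and 13 of the 31 fold changes were positive, with a median of -0.09. The 4 were VCAM1, IL6, SOD2 and IL8. For each of them, and for no other target, all 3 MSC-treated arrays were below all 3 controls (12.9%, against 3.83% of all genes). The 4 were called from these same values, so their separation is no further evidence. None had an adjusted p under 0.05 over all genes.

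VCAM1, the endothelial adhesion molecule for lymphocytes and monocytes, had log2 signals of 8.58, 8.77 and 8.34 on control arrays and 8.04, 8.10 and 7.87 on MSC-treated arrays. It was lower by treatment with a log2 fold change of -0.56 (SE 0.17, unadjusted limma p = 0.0123, exact permutation p = 0.1). IL6, the acute phase cytokine, gave 5.72, 5.32 and 5.07 against 4.16, 4.86 and 4.75, a log2 fold change of -0.78 (SE 0.25, unadjusted limma p = 0.0148, exact permutation p = 0.1). The lowest control and the highest MSC-treated array were 5.07 and 4.86 for IL6 and 8.34 and 8.10 for VCAM1. On MSC-treated 1 the IL6 signal of 4.16 was below the mean of that array's background probe sets, 4.23, so the size of its fold change is uncertain. With a minimum mean log2 signal of 5, which leaves out IL6, 3 targets were past the thresholds as lower.

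SOD2, the mitochondrial superoxide dismutase, gave 10.50, 10.35 and 10.09 on control arrays and 10.07, 9.80 and 9.51 on MSC-treated arrays, with a log2 fold change of -0.52 (SE 0.20, unadjusted limma p = 0.0338, exact permutation p = 0.1). IL8, the neutrophil chemokine, gave 7.33, 7.26 and 6.69 against 5.45, 6.64 and 6.58, with a log2 fold change of -0.87 (SE 0.34, unadjusted limma p = 0.0366, exact permutation p = 0.1). For both genes the lowest control was within 0.05 of the highest MSC-treated array on the printed scale, so the groups were separate by a narrow margin. Leaving out control 1 or control 2 left 1 of the 31 targets past the thresholds as lower, and leaving out MSC-treated 3 or control 3 gave 5. VCAM1 lost its call without control 2 (-0.46) and without MSC-treated 3 (-0.49), and IL6 without control 1 (-0.60). SOD2 lost it without control 1, control 2, MSC-treated 2 or MSC-treated 3 (-0.52 to -0.38), and IL8 without control 1, control 2 or MSC-treated 1 (-0.79 to -0.48), with every value still below 0. VCAM1 also lost it with array weights (-0.48), SOD2 with median centring (-0.50) and repeated quantile normalization (-0.44), and IL8 with the replicate block (-0.87).

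**Figure D4:**
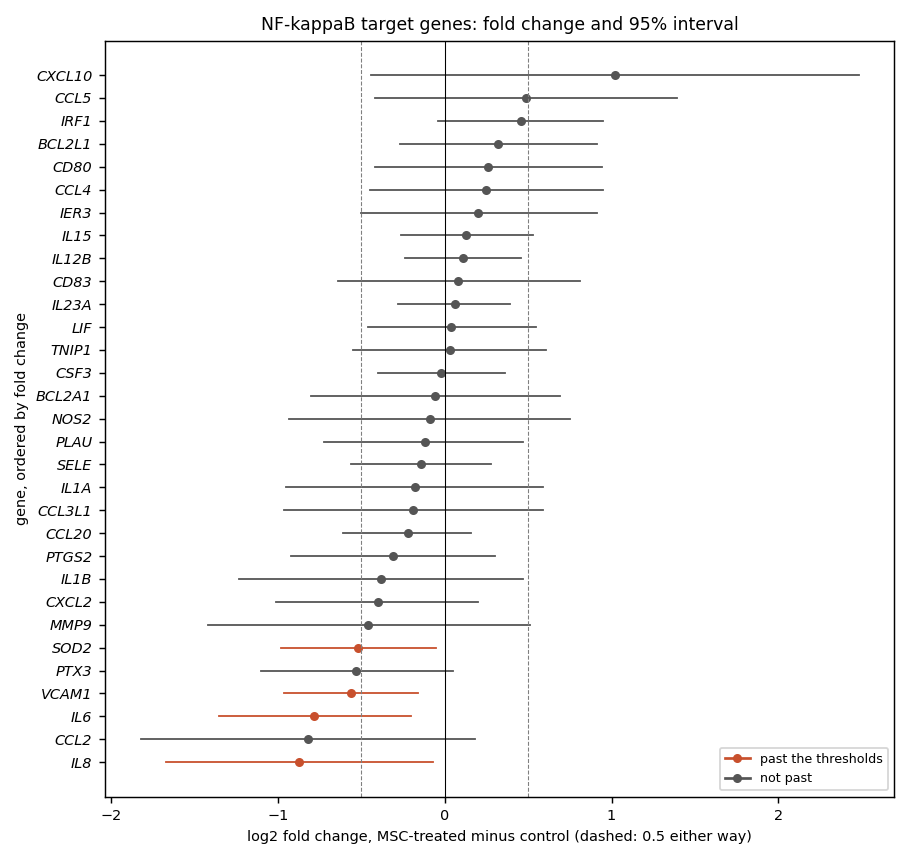
Log2 fold change of MSC-treated minus control (x axis) with its 95% interval for 31 NF-kappaB target genes (y axis, in order of fold change), in red for the genes past the thresholds and grey for the others. The 4 red genes, SOD2, VCAM1, IL6 and IL8, all lie on the lower side, between -0.52 and -0.87, while CXCL10 has the highest fold change, 1.02, with an interval that includes 0.

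With the b-T mark as a covariate, 3 of the targets were past the thresholds as higher (IRF1 at 0.60, CCL5 at 0.78 and CD80 at 0.51) and 4 as lower (VCAM1 at -0.59, IL6 at -0.70, SOD2 at -0.52 and PTX3 at -0.72), while IL8 was at -0.80 with an unadjusted limma p of 0.0587. In that fit 1.66% of all genes were past the thresholds as higher and 1.22% as lower. No target and no other gene had an adjusted p under 0.05 in it. The names IRF1, CCL5, CD80, PTX3 and CXCL10 were taken up after their values were seen. IRF1 and CCL5 are genes of the interferon and T cell response, and PTX3 is a soluble pattern recognition protein. The targets thus lay on both sides of 0 in that fit, with a median of 0.01.

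Markers of other cell types are given beside the lower targets. The mean log2 signal of 7 neutrophil markers ran from 6.74 to 7.92 in control and from 6.41 to 6.77 in MSC-treated arrays, with 5 of 7 fold changes negative, 1 of them past the thresholds, and control 1 the highest. The mean of 5 erythroid markers ran from 6.17 to 7.36 in control and from 5.84 to 6.04 in MSC-treated arrays, with all 5 fold changes negative and HBB, a haemoglobin gene, past the thresholds as lower (-1.26). Of 3 platelet markers, PPBP was past them as lower (-0.72), while ITGA2B had 0.03 and TREML1 -0.01. The list means ran from 5.23 to 5.99 in control and from 5.17 to 5.59 in MSC-treated arrays. For 5 endothelial markers, with 4 fold changes negative and none past the thresholds, the means ran from 9.30 to 10.01 and from 9.35 to 9.93. Their part in the values of VCAM1, IL6, SOD2 and IL8 was not tested.

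Other genes of TNF receptor and NF-kappaB signalling, such as receptor-proximal enzymes and ubiquitin ligases, gave no gene past the thresholds among 20 measured, with a median log2 fold change of 0.07 and a range from -0.24 to 0.21. ADAM17, the protease that sheds TNF from the cell surface, was higher on all 3 MSC-treated arrays, with log2 signals of 8.81, 8.84 and 8.52 on control arrays and 8.85, 8.95 and 8.90 on MSC-treated arrays. Its log2 fold change was 0.17 (SE 0.16, limma p = 0.304, exact permutation p = 0.1), and control 3 stood below the other 5 arrays. The next smallest p-values were those of OTULIN (0.14, SE 0.17), EDARADD (-0.16, SE 0.21) and RBCK1 (0.12, SE 0.16), all given as log2 fold changes.

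Death receptor and apoptosis genes likewise gave none past the thresholds among 12 measured, with 6 positive and 6 negative log2 fold changes, a median of 0.02 and a range from -0.30 to 0.21. DAXX, a FAS-binding protein, had a log2 fold change of 0.21 (SE 0.18), CYCS, cytochrome c, one of -0.30 (SE 0.30), and the initiator caspases CASP8 and CASP9 had 0.17 (SE 0.19) and -0.15 (SE 0.19).

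The 13 genes of the same families that the file lists under another symbol were BIRC6, NFKBID, NFKBIL1, TNFAIP8L3, TNFRSF11A, TNFRSF18, TNFRSF19, TNFRSF25, TNFRSF4, TNFRSF9, TNFSF11, TRAF1 and TRAF3IP2. None was past the thresholds. Their log2 fold changes ran from -0.41 (TNFRSF18, a costimulatory receptor of regulatory T cells) to 0.22 (TNFAIP8L3), with a median of 0.03. TNFRSF18 was the only one of them with separate groups, lower on all 3 MSC-treated arrays (SE 0.28, limma p = 0.184, exact permutation p = 0.1). Its log2 signals were 7.58, 7.57 and 7.64 on control arrays and 6.52, 7.54 and 7.51 on MSC-treated arrays, from a probe set of 3 probes. MSC-treated 1 was far below the rest, and without it the log2 fold change was -0.07. With these genes added, 0 of 52 were past the thresholds and the median was 0.04.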

How the data were processed

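Log2 signals of the 6 lung arrays were used as deposited. The authors made them by RMA (background correction, quantile normalization, probe summarization) in Affymetrix Expression Console 1.4, per the labels and Methods. Methods also describe a batch correction by ComBat with a Brainarray annotation, which is not part of these values. Quantile normalization hides a change shared by most genes. A deposited probe table, whose total probe counts per probe set (other units) and annotation were used, gave symbols and Sscrofa10.2 positions. It holds 6 signal columns whose names match no label. They were used only to tie the array names to samples, since all 27558 values of each column equalled those of 1 sample within 1e-05. The b-T mark was read from these names, and it was assumed to stand for the batch of Methods.

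Of 27558 probe sets, 8434 were not of the main category and were not used, 214 carried several symbols and 6000 no gene. The 12910 remaining were tied to 11764 genes by the file symbol or the RefSeq gene table given, with the probe set of the highest mean signal for the 1043 genes with more than 1. Groups were compared with limma 3.58.1 (lmFit, eBayes) in R 4.3.3, MSC-treated minus control, with no covariate. P-values were adjusted by the Benjamini-Hochberg method over all genes. Differences of single genes were also tested by exact two-sided permutation (smallest p 0.1). No array was left out, and array data of other organs were not analysed here. The number of arrays limits the precision.

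Members and lists were chosen with earlier results of these data known. Genes named were those past the thresholds, those with groups that did not overlap, the largest fold change of each role class, 4 of each pathway list with the smallest p, and TNF, RELA, CHUK and TNFAIP6. Other genes were named after their values were seen, to account for every member. In 20 simulated data sets of 11764 genes, limma with the same thresholds recovered 91.9% of genes changed by 1 log2 unit and 99.4% of those changed by 2, and called 3.49% of unchanged genes. The simulated arrays were independent and held no difference by the b-T mark, unlike the real ones, where 1.86% of all genes were called. The simulated shares therefore need not hold for these arrays, least of all for members with large standard errors such as TNF, NFKBIA and TNFAIP6. Alternatives were the mark as a covariate, differences within marked and other arrays, array weights, median centring, repeated quantile normalization, a minimum mean log2 signal of 5, the mean of a gene's probe sets, a trended and robust variance, a replicate block, the methods' t-test and leaving out each array.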

Additional observations from a re-analysis of the deposited data

How the results depend on the processing

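Of the 39 genes, 18 kept their sign in every one of the 15 alternatives they were tested in and 33 passed the thresholds in none. CD70 and TNFSF4 were left out by the minimum mean log2 signal of 5, so that 37 genes were tested there. Those that passed in at least 1 were NFKB2, REL, TNF, TNFAIP6, TNFSF10 and TRAF5. The 15 do not include the differences within marked and within unmarked arrays, which carry no test. Of the 18 genes, TNFSF13B (0.10) and TNFAIP8L2 (0.08) turned sign within the marked arrays and LTA (0.02) within the unmarked ones. With the mark as a covariate, the genes past the thresholds were 2 higher and 1 lower among the 39, 195 higher among all genes, and 3 higher among the NF-kappaB targets. Array weights gave 1 lower among the 39. Repeated quantile normalization gave 1 higher among the targets. A minimum mean log2 signal of 5 left 42 higher among all genes. By the methods' t-test with its larger fold threshold, 0 genes were higher and 2 lower over all genes and 0 targets were lower, and 0 genes passed after Benjamini-Hochberg adjustment. At an unadjusted p under 0.05 alone, 2 of the 39 passed it (REL and FADD). The median of the death receptor genes was -0.15 within the unmarked arrays. The cause of these shifts was not tested.

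Leaving out single arrays gave 0 to 1 higher and 0 to 1 lower among the 39, 77 to 188 higher and 89 to 420 lower among all genes, and 0 to 2 higher and 1 to 5 lower among the targets. The median of the 39 ran from -0.07 to 0.11, and the sign turned without MSC-treated 2 and without control 2.

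Signs turned with the mark as a covariate for FAS (0.07), IKBKAP (-0.03), IKBKB (0.00), NFKBIA (0.22), RELA (0.03), TNFAIP3 (0.28), TNFRSF8 (-0.04) and TRAF7 (0.04), with array weights for LTB (0.02), TNFRSF1A (-0.09) and TNFRSF21 (-0.06), with median centring for TNFAIP3 (0.01), with repeated quantile normalization for TNFAIP3 (0.03) and TNFSF4 (0.00), and with the mean of probe sets for TNFRSF11B (0.13) and TNFRSF8 (-0.38). None of these was past the thresholds.

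Without single arrays, the log2 fold change turned sign within these ranges: CD27 -0.22 to 0.34, CD40 -0.06 to 0.26, CHUK -0.06 to 0.33, FAS -0.25 to 0.02, IKBKAP -0.05 to 0.22, IKBKE -0.08 to 0.09, IKBKG -0.03 to 0.20, LTB -0.12 to 0.02, NFKB1 -0.03 to 0.17, NFKBIA -0.58 to 0.31, RELA -0.34 to 0.10, RIPK1 -0.02 to 0.37, TNF -0.12 to 0.81, TNFAIP3 -0.31 to 0.35, TNFRSF1A -0.15 to 0.22, TNFRSF21 -0.23 to 0.58, TNFRSF8 -0.08 to 0.10, TNFSF4 -0.08 to 0.09 and TRAF7 -0.30 to 0.05.

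The labels do not say whether the replicate numbers pair the arrays. Deviations of same-numbered arrays correlated at -0.407, -0.487 and 0.0571 over genes. Each of these pairs joins an array with the b-T mark and one without it. Control 2 and MSC-treated 1, both without the mark, correlated at 0.611. The correlations therefore cannot decide whether the numbers pair the arrays. With the replicate number as a block, 0 of the 39 were past the thresholds, the median was 0.05, 65 genes were higher and 102 lower over all genes, and 3 targets were lower.

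Array signals near the background probe sets, as for CD70 and TNFSF4, leave little range below them, and 3 arrays a group limit every value.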
